A study of Mus musculus with 6 samples.

Results

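The prolactin receptor axis of the mammary gland was followed through 7 genes, Prlr, Jak2, Stat5a, Stat5b, Elf5, Socs2 and Cish. All probe sets carrying exactly one of these symbols in the authors' deposited table were taken, which gave 22 probe sets of 45037 tested and 7 genes of 20519 named. The probe sets were 8 for Prlr, 6 for Socs2, 2 each for Stat5a, Stat5b and Elf5, and 1 each for Jak2 and Cish. RNA came from mammary stroma, labelled as cleared fat pad, the bed of fat and connective tissue that the ducts grow into, in mice aged 4 weeks. Of 6 arrays, 3 carried RNA of Rarb -/- mice (Rarb-null), which lack retinoic acid receptor beta, and 3 carried RNA of Rarb +/+ littermates (wild type). A label shared by every sample also ties the mice to ErbB2, without saying whether any group carried a transgene. The sources used here do not say whether 1 array stands for 1 mouse or a pool, so the p-values speak only of the spread among these arrays, which may be technical.

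Prolactin binds its receptor on the cell surface, and the receptor-bound kinase Jak2 then phosphorylates the transcription factors Stat5a and Stat5b, which enter the nucleus. In mammary epithelium this route induces the milk protein genes and Elf5, an ETS-family transcription factor of luminal progenitors and of the secretory (alveolar) lineage. Stat5 also induces Cish and Socs2, whose products damp cytokine signalling, so their RNA is often read as a sign of Stat5 activity. Prlr is not limited to epithelium, as fat and other tissues carry it too. In whole tissue, fewer cells of a type and less RNA per cell cannot be told apart.

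Values are the deposited RMA signals on the log2 scale, where 1 unit is a 2-fold difference, and they are compared between arrays for the same probe set only. Group values are means ± SD with n = 3 each, and a difference is the Rarb-null mean minus the wild-type mean. The single Rarb probe set read 6.50, 6.61 and 7.41 on the Rarb-null arrays, in replicate order, and 6.95, 6.01 and 6.65 on the wild-type arrays. Its place relative to the deletion is unknown here, so it does not check the labels. White fat markers other than Plin1 were bright on every array, with Adipoq, the adiponectin gene, between 14.35 and 14.62. Plin1 was dim by the probe set used, at 5.85 to 6.29. Epithelial markers were bright too, in tissue labelled as cleared: Epcam, an epithelial adhesion gene, read 12.71 to 13.61, where the array medians over all probe sets lay between 6.78 and 6.85. The cell cycle genes split the arrays within both genotypes, and brown fat and skeletal muscle genes each varied widely (values below).

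Elf5 was bright on 5 of the 6 arrays, in both genotypes, and far dimmer on the sixth, wild-type replicate 3. Its bright probe set, 1419555_at, read 12.10, 11.87 and 11.94 in Rarb-null stroma and 11.63, 11.93 and 8.99 in wild-type stroma, here and below in the order of replicates 1 to 3. The genotypes thus overlapped, and wild-type replicate 3 lay 2.64 log2 below the next lowest array, which is 6.25-fold. The group means were 11.97 ± 0.12 and 10.85 ± 1.62, a difference of 1.12 log2 (95% interval from -0.55 to 2.79) that did not pass the threshold (limma, adjusted p = 0.914). Without wild-type replicate 3 the difference was 0.19 log2 (limma, adjusted p = 1.0). With the mean of the epithelial markers as a covariate it was 0.62 log2 (limma, adjusted p = 0.911). The second Elf5 probe set, 1419556_at, was dim on all arrays, between 5.40 and 5.69, and did not show the low value of wild-type replicate 3.

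Of the caseins, the main milk proteins, Csn1s1, Csn1s2a, Csn2 and Csn3 were lowest on the same array by their brightest probe sets. Csn2, encoding beta-casein, read 14.53, 14.12 and 14.65 on Rarb-null arrays and 13.90, 14.34 and 7.63 on wild-type arrays. Wild-type replicate 3 therefore lay 6.27 log2 below the next lowest array, a 77.1-fold step. Csn1s2a, an alpha-s2-casein gene, read 13.84, 12.31 and 13.93 against 12.05, 13.61 and 7.48, and Csn1s1, the alpha-s1-casein gene, read 13.36, 12.30 and 13.52 against 13.36, 12.94 and 8.55. Steps on wild-type replicate 3 were 4.58 log2 for Csn1s2a, 3.75 log2 for Csn1s1 and 1.09 log2 for Csn3, which encodes kappa-casein and read 12.56 there. The only probe set of Csn1s2b was dim everywhere, between 4.22 and 4.63. Among the 5 further casein probe sets, Csn2 1420370_s_at and Csn1s2a 1420633_a_at were also lowest there, at 6.93 and 6.38, against 13.56 and 11.25 on the next lowest array. The 3 others were dim on most arrays and had no such step: Csn3 1451851_a_at read 5.30 on wild-type replicate 3 and 5.88 on the next lowest array, and Csn1s2a 1455579_at read 4.22 and 4.71. The dim Csn1s2a 1438694_at was lowest on Rarb-null replicate 2, at 4.81, with wild-type replicate 3 at 4.85. Differences between genotypes were 2.48 log2 for Csn2 and 2.31 log2 for Csn1s2a, did not pass the threshold (limma, adjusted p from 0.914 to 0.997 over the 5 caseins), and were 0.31 and 0.53 log2 without wild-type replicate 3. The mean of the 5 casein genes was 11.98, 11.36 and 12.25 on Rarb-null arrays and 11.62, 11.79 and 8.17 on wild-type arrays. Its largest gap, between wild-type replicate 3 and the rest, took up 0.780 of its whole range. The arrays therefore formed separate clusters of 5 and 1, and no pooled correlation between the axis genes and the casein mean is given. Neither cluster holds enough arrays for one. The r of Csn2 with Elf5 below is a description only, and its value over 6 arrays is shaped by this gap.

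**Figure D1:**
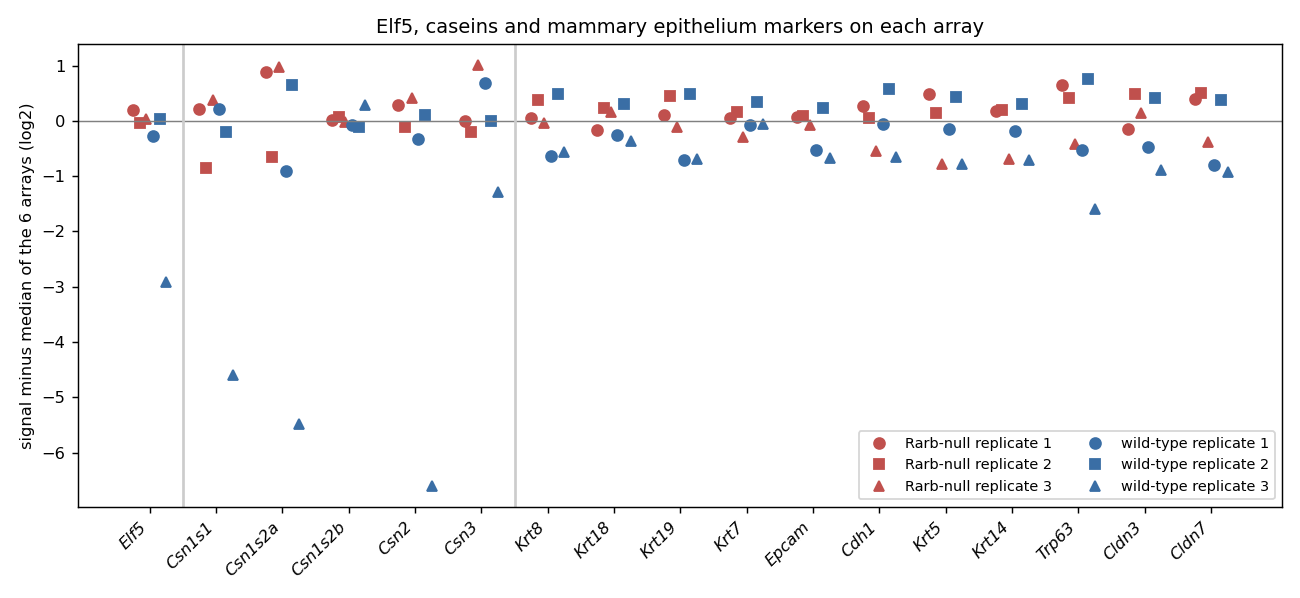
Signal of Elf5, the 5 casein genes and 11 mammary epithelium markers on each array, as the log2 difference from the median of the 6 arrays (1 point per array; red, Rarb-null; blue, wild type). Wild-type replicate 3 lies at -2.91 for Elf5 and -6.60 for Csn2, while 10 of the epithelial markers on that array lie within 1 log2 of theirs; Trp63 is the exception at -1.59.

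Downward steps of this size were rare. The brightest probe set of each of 20519 genes was examined for arrays at least 2 log2 below all others, a limit chosen after the values had been seen. Steps above all others were not counted, and some were large. Rarb-null replicate 3 read 13.10 for Lalba, a milk gene, and 13.28 for Ucp1, a brown fat gene, against 10.02 and 10.37 on the next highest array. Wild-type replicate 3 had 10 genes this far below all other arrays, and the other 5 arrays had 0. The 10 were Elf5, Csn1s1, Csn1s2a, Csn2, Cel, Col9a1, Myh4, Plet1, Slc28a3 and Timd2. Cel encodes a lipase that is secreted into milk, and Myh4 is a skeletal muscle myosin gene. Epithelial markers moved far less: their list mean, over 11 of 11 markers measured and relative to the mean of the 6 arrays, was 0.26, 0.37 and -0.19 on Rarb-null arrays and -0.32, 0.51 and -0.63 on wild-type arrays. Elf5 on the same relative scale was 0.69, 0.46 and 0.53 on Rarb-null arrays and 0.22, 0.52 and -2.42 on wild-type arrays. On wild-type replicate 3, Elf5 minus the epithelial mean was thus -1.79 log2, against 0.01 to 0.72 on the other arrays. The mean of 10 luminal progenitor and alveolar genes was 0.24, 0.13 and 0.10 on Rarb-null arrays and -0.07, 0.39 and -0.79 on wild-type arrays. Among them, Id2 and Ehf read 8.52 and 8.38 on wild-type replicate 3, against 10.27 and 9.81 on the next lowest array. Foxa1, Nfib and Elf3 were not lowest there. The part of epithelial content in the Elf5 and casein values was not tested further.

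Genes most like Elf5 across the arrays were sought among 1003 genes with an SD of at least 0.5 log2, by Pearson's r over 6 arrays, as a description. The highest were Csn2 (r = 0.998), Grhl2 (0.992), a transcription factor gene of epithelia, Aim1 (0.985), Slc5a1 (0.984), a sodium-glucose transporter gene, and Epb41l4b (0.979). Of these genes, 53 (5.28%) reached 0.9. Without wild-type replicate 3, r was 0.842 for Csn2, 0.877 for Grhl2 and 0.823 for Epb41l4b. For Aim1 and Slc5a1 it was 0.169 and -0.0552, so their likeness to Elf5 rests on that array. All 5 genes were picked by r over 6 arrays, which that array dominates. Elf5 spanned only 11.63 to 12.10 on the other 5 arrays. The share of genes reaching such r on those 5 was not counted.

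The receptor gene did not share this pattern. The brightest Prlr probe set, 1437397_at, read 10.94, 11.27 and 10.33 on Rarb-null arrays and 10.41, 11.18 and 10.79 on wild-type arrays. Its highest arrays were Rarb-null replicate 2 and wild-type replicate 2, and wild-type replicate 3, the array low in Elf5 and casein RNA, lay in the middle. The means were 10.85 ± 0.48 and 10.79 ± 0.39, a difference of 0.05 log2 (95% interval from -0.61 to 0.71; limma, adjusted p = 0.993). Probe set 1441102_at read 9.98, 10.26 and 9.54 against 9.63, 10.37 and 9.74, and 1448556_at read 8.72, 9.03 and 7.99 against 8.23, 8.86 and 8.37, with the same 3 arrays highest and Rarb-null replicate 3 lowest on all of them.

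The remaining 5 Prlr probe sets did not all follow. Probe set 1425853_s_at, whose suffix marks probes shared between transcripts, read 7.72, 8.18 and 7.55 against 7.53, 7.66 and 7.15, and was lowest on wild-type replicate 3. It had the largest Prlr difference, 0.37 log2 (95% interval from -0.11 to 0.85; limma, adjusted p = 0.909). The other 4, 1421382_at, 1450226_at, 1451850_at and 1451844_at, were dim, with values between 4.72 and 7.11 and differences between -0.10 and 0.17 log2. One of these, 1450226_at, did not overlap between genotypes: its lowest Rarb-null value was 5.50 and its highest wild-type value 5.48. Which transcript forms of the receptor each probe set reads is unknown here.

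**Figure D2:**
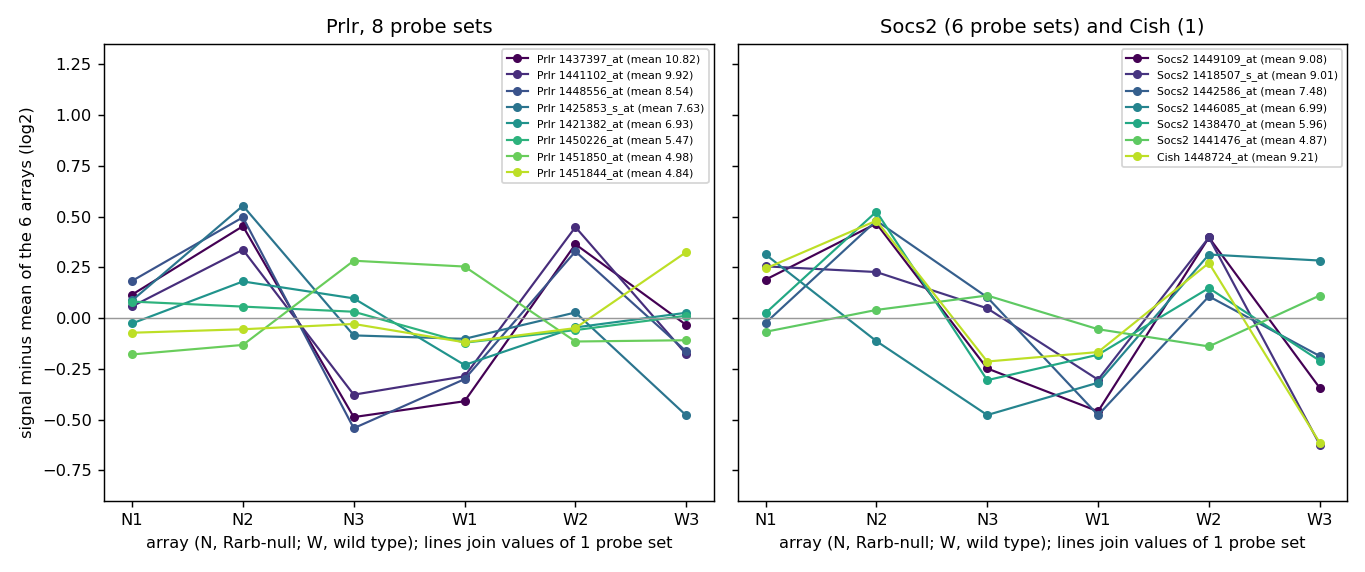
Signal of every Prlr probe set (left) and every Socs2 and Cish probe set (right) on each array, as the log2 difference from the probe set's mean over 6 arrays. The 3 brightest Prlr probe sets, the 2 brightest of Socs2 and Cish are highest on N1, N2 and W2, whereas the dim 1451850_at of Prlr is highest on N3 and W1.

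Jak2 varied least of the 7 genes, with a range of 0.33 log2 over the arrays by its single probe set, and the brightest probe sets of Stat5a and Stat5b had ranges of 0.64 and 0.71 log2. Jak2, the receptor's kinase, read 8.15, 8.07 and 8.13 on Rarb-null arrays and 8.22, 7.89 and 7.90 on wild-type arrays, with overlapping groups and a difference of 0.11 log2 (limma, adjusted p = 0.957). Stat5a, by probe set 1421469_a_at, read 9.47, 9.55 and 9.59 against 9.55, 9.34 and 8.95. Stat5b, by probe set 1422103_a_at, read 10.30, 10.41 and 10.46 against 10.32, 10.19 and 9.76. Both were lowest on wild-type replicate 3, by 0.39 and 0.44 log2, far smaller steps than those of Elf5 and the caseins. Their differences were 0.26 and 0.31 log2 (limma, adjusted p = 0.914 and 0.908), and 0.09 and 0.14 log2 without that array. The paralogs are close in sequence, and whether these probe sets separate them is unknown here.

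A second Stat5a probe set, 1450259_a_at, had the smallest unadjusted p of the 22. It read 5.62, 5.87 and 6.09 on Rarb-null arrays and 5.48, 5.33 and 5.17 on wild-type arrays, so every Rarb-null array lay above every wild-type array. The means were 5.86 ± 0.24 and 5.32 ± 0.16, a difference of 0.54 log2, or 1.45-fold (95% interval from 0.18 to 0.90). It did not pass the threshold (limma, unadjusted p = 0.00934, adjusted p = 0.908), and leaving out single arrays gave differences from 0.42 to 0.66 log2. All its values lay under the array medians, and the brighter Stat5a probe set overlapped between genotypes. The second Stat5b probe set, 1422102_a_at, differed by 0.00217 log2.

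By Cish and the 2 brightest Socs2 probe sets, the feedback inhibitors were highest on the arrays that were highest for the receptor. Cish read 9.45, 9.69 and 8.99 on Rarb-null arrays and 9.04, 9.48 and 8.59 on wild-type arrays. The brightest Socs2 probe set, 1449109_at, read 9.26, 9.54 and 8.83 against 8.62, 9.47 and 8.73. Rarb-null replicates 1 and 2 and wild-type replicate 2 were the 3 highest arrays for both, and genotypes overlapped. Cish was lowest on wild-type replicate 3 and Socs2 on wild-type replicate 1. The differences were 0.34 log2 for Cish (95% interval from -0.27 to 0.95; limma, adjusted p = 0.927) and 0.27 log2 for Socs2 (95% interval from -0.36 to 0.91; limma, adjusted p = 0.951). With the epithelial covariate they were 0.10 and 0.03 log2. Probe set 1418507_s_at of Socs2, nearly as bright, read 9.27, 9.24 and 9.06 against 8.71, 9.41 and 8.39, again with overlap and with the same 3 arrays highest. Probe set 1442586_at was highest on Rarb-null replicate 2, at 7.96, and lowest on wild-type replicate 1, with overlap between genotypes. Its difference was 0.37 log2 with all arrays (limma, adjusted p = 0.908) and also 0.37 log2 without wild-type replicate 3. In that probe set Rarb-null replicate 3, at 7.58, lay above Rarb-null replicate 1, at 7.46. The other 3 Socs2 probe sets were dimmer and differed by -0.19 to 0.16 log2. Of these, 1438470_at had the same 3 arrays highest as Cish. Probe set 1446085_at was instead highest on Rarb-null replicate 1 and wild-type replicates 2 and 3, and 1441476_at on replicate 3 of both genotypes.

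**Figure D3:**
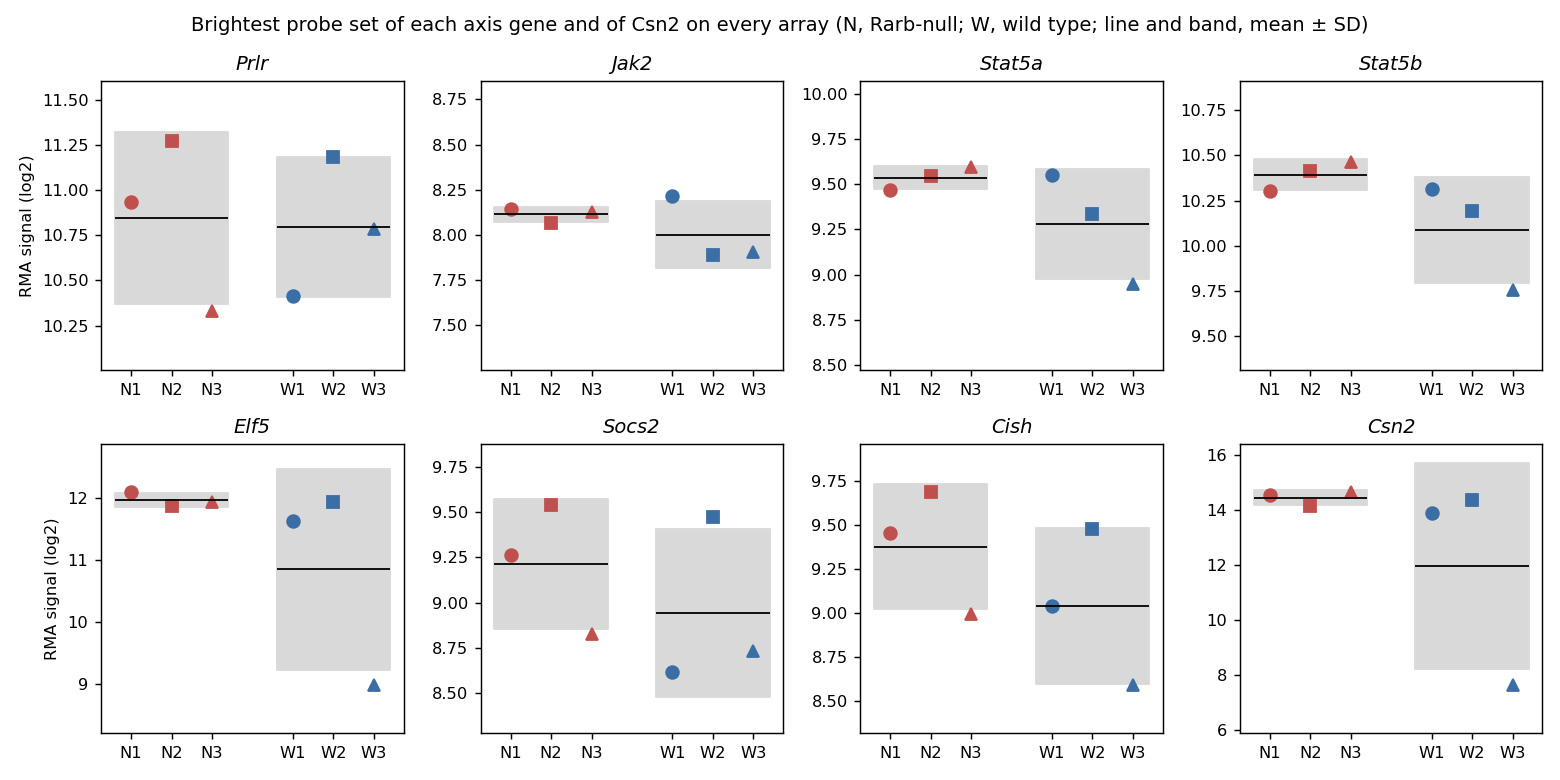
RMA signal (log2) of the brightest probe set of each of the 7 genes and of Csn2 on Rarb-null (N1 to N3, red) and wild-type (W1 to W3, blue) arrays, each panel on its own axis range; lines are group means and grey bands ± SD over 3 arrays. The wild-type band of Elf5 and Csn2 is wide, with W3 at 8.99 and 7.63, whereas Prlr, Socs2 and Cish spread within both genotypes.

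Short promoter sequences, from 250 bases before to 50 after the annotated start, were read for 9 of the 12 axis and casein genes from RefSeq (GRCm38.p6) to show the letters on which Stat5 is known to act. The motif TTCNNNGAA, the core of the Stat5 recognition sequence, reads the same on both strands and occurred in 8.30% of 32851 promoters. Among 11 promoters of 6 axis genes, 1 of 3 for Prlr and the single one for Cish held it. None of those of Elf5, Stat5a, Stat5b and Jak2 did, which says only that these letters are not in these windows. Cish held it at 2 places, as 0.457% of promoters did at 2 or more. The 3 casein genes that had a promoter sequence, Csn1s1, Csn1s2a and Csn2, each held it once. Socs2, Csn3 and Csn1s2b were the genes without an entry. The motif begins 93 bases before the start in Csn2 (chr5:87699376-87699675, minus strand), 100 before in Csn1s1 (chr5:87665958-87666257, plus) and 20 after in Csn1s2a (chr5:87774200-87774499, plus). In Cish (chr9:107296409-107296708, plus) it begins at the start and again 11 bases after it, and in the Prlr promoter that holds it (chr15:10223656-10223955, plus) 110 before. The sequences are shown 5′ to 3′ with the motif in capitals, and a match is a description of letters, not a bound site.
Csn2: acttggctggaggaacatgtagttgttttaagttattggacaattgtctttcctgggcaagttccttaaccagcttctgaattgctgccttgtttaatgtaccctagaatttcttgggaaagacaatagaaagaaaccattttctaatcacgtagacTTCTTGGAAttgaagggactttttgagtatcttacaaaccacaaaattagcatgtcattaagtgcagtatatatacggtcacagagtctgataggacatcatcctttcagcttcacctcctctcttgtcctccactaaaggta
Csn1s1: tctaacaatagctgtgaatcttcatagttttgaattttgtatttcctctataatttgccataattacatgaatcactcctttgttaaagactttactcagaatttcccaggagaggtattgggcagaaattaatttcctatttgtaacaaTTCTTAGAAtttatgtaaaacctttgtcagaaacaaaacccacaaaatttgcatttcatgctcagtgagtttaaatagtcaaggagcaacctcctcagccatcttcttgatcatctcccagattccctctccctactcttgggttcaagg
Csn1s2a: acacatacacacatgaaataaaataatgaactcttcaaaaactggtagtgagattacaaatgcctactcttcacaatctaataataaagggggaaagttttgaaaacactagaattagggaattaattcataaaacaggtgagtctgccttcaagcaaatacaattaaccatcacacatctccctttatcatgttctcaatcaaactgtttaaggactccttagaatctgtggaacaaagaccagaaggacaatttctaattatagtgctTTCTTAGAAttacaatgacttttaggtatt
Cish: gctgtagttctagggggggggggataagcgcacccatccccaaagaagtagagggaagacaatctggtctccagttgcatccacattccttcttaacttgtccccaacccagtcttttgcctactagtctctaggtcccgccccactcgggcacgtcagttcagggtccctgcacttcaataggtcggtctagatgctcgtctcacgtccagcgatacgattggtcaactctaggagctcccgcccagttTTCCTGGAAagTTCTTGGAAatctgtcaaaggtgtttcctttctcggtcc
Prlr: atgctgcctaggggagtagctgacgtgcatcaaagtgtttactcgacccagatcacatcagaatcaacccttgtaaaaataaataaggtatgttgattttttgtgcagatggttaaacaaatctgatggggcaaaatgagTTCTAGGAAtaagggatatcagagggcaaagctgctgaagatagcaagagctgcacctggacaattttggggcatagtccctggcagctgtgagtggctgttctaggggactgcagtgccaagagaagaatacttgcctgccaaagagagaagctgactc

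The arrays that were high in Prlr, Cish and Socs2 were also high in epithelial and cell cycle genes. The 3 highest arrays for the epithelial marker mean given above were again Rarb-null replicates 1 and 2 and wild-type replicate 2. The mean of the cell cycle list, 6 of 7 genes measured, was 1.30, 1.36 and -1.50 on Rarb-null arrays and -1.11, 1.28 and -1.34 on wild-type arrays, relative to the mean of the 6. Ccna2, the cyclin A gene, read 9.85, 9.86 and 7.03 against 6.83, 9.75 and 6.81. Rarb-null replicates 1 and 2 and wild-type replicate 2 were thus high in Prlr and in cyclin RNA, and both genotypes held high and low arrays. Brown adipocyte genes ran the other way on some of these arrays, with list means of -0.12, -1.25 and 2.05 against 0.17, -0.98 and 0.14 over 7 of 7 genes. Skeletal muscle genes stood at -1.08, -0.12 and 0.90 against -0.82, 2.51 and -1.39 over 6 of 6. The other 6 marker lists (salivary gland, white adipocyte, fibroblast, endothelium, T and B lymphocyte, macrophage) were measured in full but for 1 salivary gene, and their means stayed between -0.41 and 0.27 on every array. What part epithelial content, proliferation, brown fat or muscle had in the values of the axis genes was not tested.

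Genes most like Prlr across the 6 arrays, by the same measure over 1004 genes, were Postn (r = 0.987), the periostin gene, Spon1 (0.986), Foxa1 (0.984), a transcription factor gene of hormone-receptor-positive luminal cells, Samd5 (0.982) and S100a14 (0.982). Of the genes compared, 84 (8.37%) reached 0.9. Wild-type replicate 3 lay near the mean of Prlr, so leaving it out could change r little, and r of the 5 was 0.983 to 0.993 without it.

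Some other milk genes had yet another order of arrays. Lalba, encoding alpha-lactalbumin, and Btn1a1, encoding the milk fat globule protein butyrophilin, were chosen after their values had been seen. Lalba read 7.85, 7.68 and 13.10 on Rarb-null arrays and 10.02, 8.12 and 7.96 on wild-type arrays. Btn1a1 read 12.04, 11.38 and 13.90 against 13.35, 11.95 and 9.74. Rarb-null replicate 3 and wild-type replicate 1, the lowest arrays for Prlr, were the highest for both. Csn3 had the same pair highest, at 14.85 and 14.53. Wap, the whey acidic protein gene, was highest on Rarb-null replicate 3 at 9.06 and read 7.01 on wild-type replicate 1, within its range of 6.98 to 7.78 on the rest. The highest signals of Lalba, Btn1a1 and Csn3 thus lay on other arrays than those of Prlr. Other milk and secretory genes were divided. Ltf, Mfge8 and Spp1 had the same pair highest. Glycam1 and Olah were highest on Rarb-null replicate 1, at 8.43 and 7.14, and Wfdc18 on wild-type replicate 2, at 13.73, both arrays high in Prlr. Xdh was highest on wild-type replicate 1 and lowest on Rarb-null replicate 3.

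**Figure D4:**
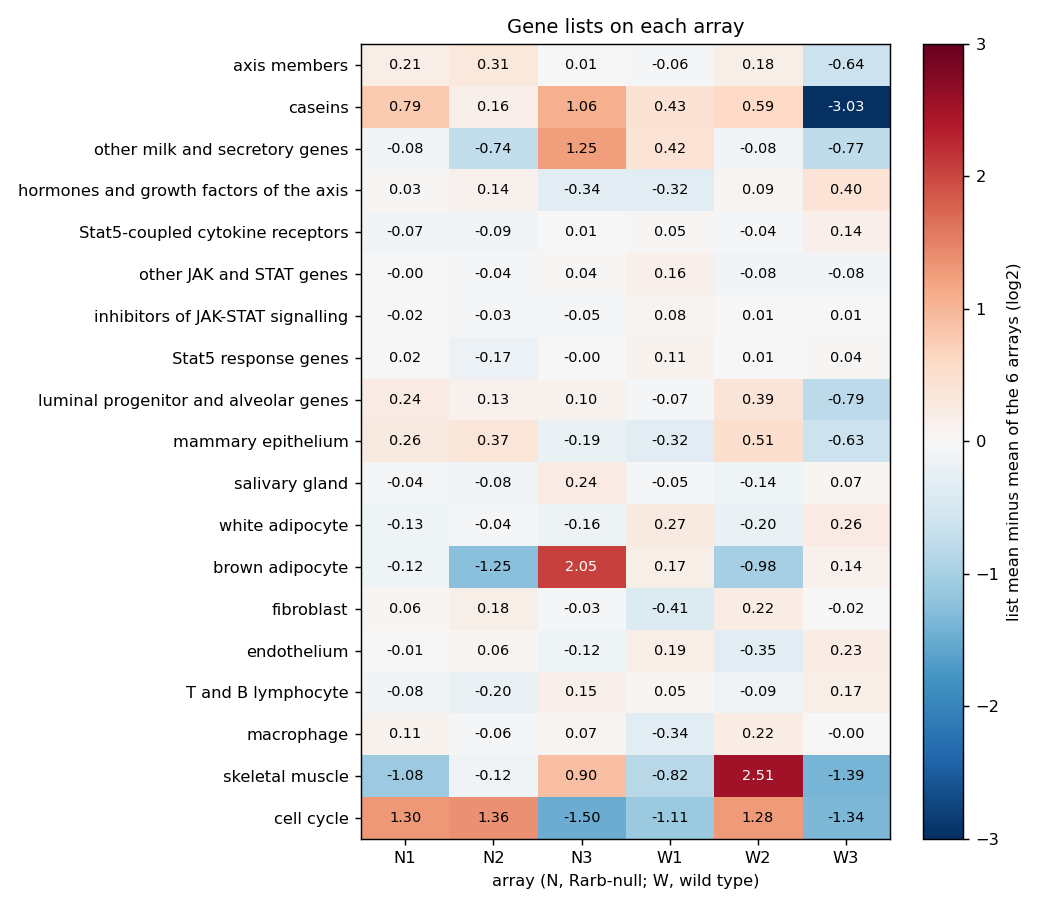
Mean of each gene list on each array (N, Rarb-null; W, wild type) as the log2 difference from the mean of the 6 arrays, with the value printed in each cell. Caseins stand at -3.03 on W3 and between 0.16 and 1.06 elsewhere, and the cell cycle row is positive on N1, N2 and W2 and negative on N3, W1 and W3.

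Between genotypes, limma called 0 of the 22 probe sets at an adjusted p of 0.05, against 0% of all 45037. At an unadjusted p under 0.05 there was 1, the dim Stat5a probe set, against 5.22% of all, and the authors' deposited table gives it a p-value of 0.0115. Without wild-type replicate 3 there was again 1, that same probe set (limma, unadjusted p = 0.0338), against 2.9% of all. Groups did not overlap for 2 of the 22 probe sets (9.09%), against 10.4% of all, so the share stood near the background. Rarb-null means were higher for 19 of the 22 and lower for 3, with a median difference of 0.14 log2, where 49.95% of all probe sets were higher and the median was -0.000189 log2. Centring each array on its median turned the sign of 2 of the 19, Prlr 1441102_at and Stat5b 1422102_a_at. Probe sets of 1 gene share their target, and wild-type replicate 3 was the lowest array for 4 of the 7 brightest probe sets (16.6% of all genes). The median difference of these 7 was 0.27 log2, and 0.12 log2 without that array.

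**Figure D5:**
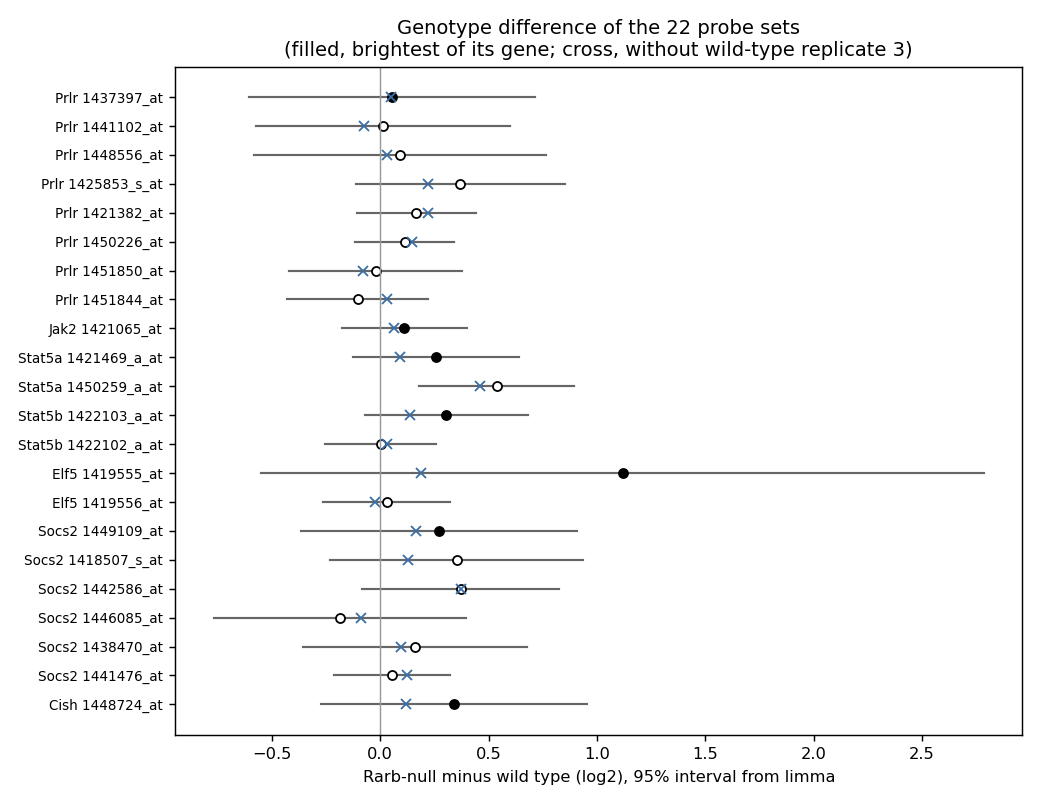
Rarb-null minus wild type (log2) of the 22 probe sets with 95% intervals from limma (filled circles, brightest probe set of a gene; open circles, others), and the same difference without wild-type replicate 3 (crosses). Only the interval of the dim Stat5a probe set 1450259_a_at leaves out 0, and the Elf5 difference moves from 1.12 to 0.19 when the array is left out.

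The wider pathway gave 0 genes past the threshold in either direction in each of 8 lists (limma). At an unadjusted p under 0.05 (limma) there were 2, Il2rg among 11 Stat5-coupled cytokine receptors and Socs3 among 16 inhibitors. The other lists held none. Of all genes 5.3% were under it, so the share over the 8 lists did not exceed the background. Il2rg, the common gamma chain of lymphocyte cytokine receptors, read 9.66, 8.96 and 9.17 on Rarb-null arrays and 9.57, 10.07 and 10.07 on wild-type arrays, which overlap (-0.64 log2; limma, adjusted p = 0.908). Socs3, a cytokine inhibitor that acts mainly on Stat3 signalling, read 8.46, 8.34 and 9.19 against 9.44, 9.06 and 9.99, which also overlap (-0.83 log2; limma, adjusted p = 0.908). Medians below stand against -0.01 log2 over all genes, and counts of higher genes against 47.1% of all genes.

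Of the 5 caseins, 4 were higher on average in Rarb-null stroma, and the median difference of 1.44 log2 was 0.12 without wild-type replicate 3. Of 10 other milk and secretory genes 8 were higher (median 0.28, and -0.16 without that array), led by p by Xdh, the xanthine dehydrogenase gene, at -0.62, and Wap at 0.61. Of 10 luminal progenitor and alveolar genes 9 were higher (median 0.33, and 0.03 without that array), with Sox9 at 0.51 and Gata3 at 0.35. The milk median was also negative without Rarb-null replicate 3, at -0.19. The casein median of 0.12 is the value of the dim Csn1s2b, and Csn2 and Csn1s2a stood at 0.31 and 0.53 log2 without wild-type replicate 3, as given above.

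The signalling lists were flatter. Of 6 hormones and growth factors, 1 was higher (median -0.06), with Prl, the prolactin gene, dim at 4.86 to 5.16 and Wnt4 at -0.27. Of 11 Stat5-coupled cytokine receptors, 4 were higher (median -0.08), with Il3ra at -0.19 beside Il2rg. Of 8 other JAK and STAT genes, 4 were higher (median 0.01), with Jak1 at 0.39 and Jak3 at -0.18. Of 16 inhibitors, 5 were higher (median -0.11), with Pias1 at 0.32 beside Socs3. Of 9 measured Stat5 response genes, 4 were higher (median -0.06), with the survival gene Bcl2l1 at -0.36 and the kinase gene Akt1 at 0.26. None of the genes in these 5 lists passed in limma, and the adjusted p of the 10 with the smallest p, 2 per list, ran from 0.908 to 0.968.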

How the data were processed

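RNA extracted with Trizol was labelled and hybridised to Affymetrix arrays, per the labels' protocols. The authors deposited log2 signals made by RMA, per the submitters' processing notes (version not given in the sources used here). RMA equalises distributions across arrays and so removes any global difference. The deposited table also holds the authors' group log2 means, a log2 fold change, a score (their moderated statistic) and a p-value per probe set. Detection flags were not used, and 6 arrays limit the precision.

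Of 45101 probe sets, 64 controls were left out. Old gene symbols were updated through RefSeq (8412 probe sets), 28011 were current, 3726 unmatched, 1239 had several symbols and 3649 none. A gene is given by the probe set with the highest mean. The genotypes were set against each other in limma 3.58.1 under R 4.3.3 (lmFit, eBayes, two-sided, Benjamini-Hochberg adjustment over all 45037, threshold 0.05). The fit was also run on simulated data with independent noise. That setting lacks the variation shared by many genes on these arrays, so it checks only the running of the fit. Figures used Python 3.11.15 and matplotlib 3.10.9.

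All probe sets of the 7 genes are named, as are every casein, the 2 genes with the smallest p in each pathway list, and the 5 genes most alike in pattern. Alternatives were quantile normalization, median centring, removal of the dimmest 40%, trended robust variance, array weights, a replicate block, an epithelial covariate, averaging each gene's probe sets, and each array left out. The members and lists were chosen with earlier results of these data known.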

Additional observations from a re-analysis of the deposited data

How the results depend on the processing

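With all 6 arrays, 0 probe sets passed in limma (2351 at an unadjusted p under 0.05). Leaving out single arrays gave 0 to 1 passing and 1147 to 4418 at unadjusted p, with 1 passing and 1147 at unadjusted p without Rarb-null replicate 2, and 4418 without wild-type replicate 2. With the dimmest 40% removed there were 1566. Probe sets of the axis at an unadjusted p under 0.05 numbered 1, 1 to 5 without single arrays (3 without wild-type replicate 1, 5 without wild-type replicate 2), and 0 with the dimmest removed, which drops the Stat5a probe set 1450259_a_at. Its adjusted p ran from 0.423 to 1.0 over all alternatives, and that of Elf5 1419555_at from 0.504 to 1.0.

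Same-numbered arrays of the 2 groups correlated at -0.196, 0.447 and 0.292 in their deviations, and differently numbered ones at -0.535 to 0.385. Rarb-null replicate 1 correlated best with wild-type replicate 2. These values cannot settle whether the numbers mark pairs or batches, and the main fit treats the arrays as unpaired. With the replicate block 0 probe sets passed, 3418 had an unadjusted p under 0.05, and 4 of the axis did.

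The Elf5 difference ran from 0.19 to 1.66 without single arrays and was 0.57 as the mean of both probe sets. Under the epithelial covariate the sign turned for Prlr 1437397_at (-0.15), 1441102_at (-0.20), 1448556_at (-0.13) and 1451850_at (0.0506). Median centring turned Prlr 1441102_at (-0.0136) and Stat5b 1422102_a_at (-0.0225), which was -0.0181 after quantile normalization and -0.0296 with array weights. Signs turned when single arrays were left out for Prlr 1437397_at (-0.16 to 0.31), 1441102_at (-0.15 to 0.24), 1448556_at (-0.13 to 0.39), 1451850_at (-0.17 to 0.10) and 1451844_at (-0.19 to 0.0322). The same held for Stat5b 1422102_a_at (-0.0570 to 0.0345), Elf5 1419556_at (-0.0248 to 0.12) and Socs2 1446085_at (-0.39 to 0.0071), 1438470_at (-0.0598 to 0.36) and 1441476_at (-0.00024 to 0.13). The cause was not tested. The casein gap share was 0.305 to 0.845 without single arrays (0.305 without wild-type replicate 3). It was 0.893 for Csn2 alone, 0.631 for the mean of all casein probe sets and 0.782 after quantile normalization. Alternatives that change only a correlation with the casein mean were not run, as none was given. List medians without single arrays turned sign for hormones and growth factors (-0.17 to 0.0967), other JAK and STAT genes (-0.0583 to 0.0755) and other milk genes (-0.19 to 0.76). They ran from 0.12 to 2.31 for caseins, 0.0340 to 0.60 for luminal genes, -0.14 to -0.0038 for receptors, -0.11 to -0.0283 for inhibitors and -0.18 to -0.0593 for Stat5 response genes, and the inhibitor median was -0.0344 as the mean of all probe sets.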

Other observations

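Areg, encoding amphiregulin, an estrogen-induced growth factor of mammary epithelium, read 8.01, 8.23 and 6.52 on Rarb-null arrays and 6.34, 8.03 and 9.55 on wild-type arrays, and was chosen after its values had been seen. It was highest on wild-type replicate 3, where Elf5 and Csn2 were lowest. Foxa1 read 11.33, 11.68 and 10.16 against 10.23, 11.63 and 10.71, so that array lay in the middle, whereas the luminal gene Gata3 was lowest there, at 8.72 against 9.30 to 9.81 on the rest. Spp1, the osteopontin gene, also chosen after its values had been seen, was highest on the same pair of arrays as Lalba, at 13.66 on Rarb-null replicate 3, and read 8.19 to 8.91 on the arrays outside that pair. Ucp1, the brown fat uncoupling protein gene, read 8.64, 6.11 and 13.28 against 10.37, 7.29 and 9.49 and was highest on that pair too.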
